A study of Mus musculus with 4 samples.

Results

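Genes that were higher in Sertoli cells than in pre-supporting cells of the XY control gonad at E11.5 were read in XY gonads lacking the miR-17~92 microRNA cluster, in XX control gonads and in the other cell types of the dissection. The members were the genes with at least 20 CPM (unique molecular identifiers, or UMIs, per 1000000 in the sum) in Sertoli cells and at least 3 times the CPM of pre-supporting cells, after 0.5 UMI had been added to both sums. Of 21495 genes, 6971 reached 20 CPM in Sertoli cells and 221 also reached the fold. The rule left out 9 of these by name (Sox9, Sox8, Amh, Dhh, Ptgds, Cst9, Cbln4, Mro and Aard, all known Sertoli genes), so that 212 members remained. No mitochondrial, ribosomal protein or haemoglobin gene reached both limits.

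Cells of gonads with the attached mesonephros were fixed in methanol and counted by droplet single-cell RNA-seq at the 3′ end of transcripts. XY control embryos at E11.5 grew by tetraploid aggregation from an unedited XY embryonic stem cell line. XY miR-17~92 KO embryos at E11.5 and at E11.75 were made in the same way from cells of that line in which CRISPR/Cas9 had removed both copies of the cluster. XX control embryos at E11.5 came from crosses, and the labels give C57BL/6 x 129S4/SvJae as the strain of every sample. There were 4 samples and 1 sample per group, each pooled from several embryos' gonads, so no test was possible, and the 95% intervals given below cover counting error only. Since an XY control at E11.75 was not analysed here, the deletion and the stage cannot be told apart where the KO at E11.75 is set against the XY control.

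Sertoli cells are the first somatic cells of the testis to differentiate. They arise in the XY gonad from pre-supporting cells, which can take either sexual fate, once SRY has raised SOX9, and they then surround the germ cells, lay down a basement membrane and secrete signals that direct the rest of the gonad. In the XX gonad, cells of the same lineage become pre-granulosa cells.

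Pre-supporting cells were deposited as bipotential progenitors and Sertoli cells as supporting cells. The XY control held 1641 pre-supporting and 752 Sertoli cells, with 7884234 and 4152994 UMIs. The KO held 1084 pre-supporting and 24 Sertoli cells at E11.5 and 924 and 168 at E11.75, and the XX control held 352 pre-supporting cells and 2 cells with the Sertoli name. The median depth of pre-supporting cells lay between 4522 and 5349 UMIs in the XY samples and was 17498.5 UMIs in the XX control. The 9 left-out Sertoli genes summed to 2576 CPM in Sertoli cells against 356 CPM in pre-supporting cells of the XY control, to 932 against 87.7 CPM in the KO at E11.5 and to 1564 against 163 CPM in the KO at E11.75. In the 2 XX cells they summed to 83.0 CPM and 6 of the 9 were at 0, which goes against the name, so these 2 cells enter no main comparison. They enter only the alternative that merges pre-supporting with Sertoli cells. Marker lists of other types summed in pre-supporting and Sertoli cells of the XY control to 65.7 and 58.5 CPM (endothelial), 87.8 and 78.7 CPM (germ cells), 487 and 458 CPM (interstitial), 2622 and 2269 CPM (erythroid), 965 and 430 CPM (coelomic epithelium) and 416 and 392 CPM (mesonephric tubules).

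In the XY control the members took 2.36% of all Sertoli UMIs (2.34 to 2.37) and 0.485% of pre-supporting UMIs (0.480 to 0.489). Members were chosen by these values, which are therefore a description. The median fold was 5.25, with 114 members at 5-fold or more, 44 at 10-fold or more and 18 at 20-fold or more. The median level in Sertoli cells was 56.6 CPM, 65 members reached 100 CPM and 7 reached 500 CPM. Just inside the limit lay Spp1 at 3.02-fold, Iqgap2 at 3.02-fold and Elk3 at 3.0-fold, and just outside it lay Sat2 at 2.98-fold, Tyro3 at 2.97-fold and Socs2 at 2.95-fold. Each UMI tags 1 molecule at its 3′ end, so CPM was not divided by transcript length.

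By level in Sertoli cells Tuba1a, an alpha-tubulin, led the members and reached 962 CPM in Sertoli cells against 281 CPM in pre-supporting cells, Bex2 reached 933 against 290 CPM, Gstm2, a glutathione S-transferase, reached 913 against 209 CPM, and Col18a1, a collagen of basement membranes, reached 879 against 84.6 CPM. Reads of Gstm2, Gstm6 and Gstm7 may be shared among these close paralogs, so their levels are uncertain. Phgdh, which opens the serine synthesis pathway, stood at 547 against 90.1 CPM. By fold the order was another, led by genes that were near absent from pre-supporting cells. Col9a3, a chain of collagen IX, rose 80.1-fold from 2.41 to 198 CPM, Mall, a membrane raft protein, 72.9-fold from 1.01 to 78.5 CPM and Sox10, a SoxE transcription factor, 44.7-fold from 0.634 to 31.1 CPM.

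**Figure D1:**
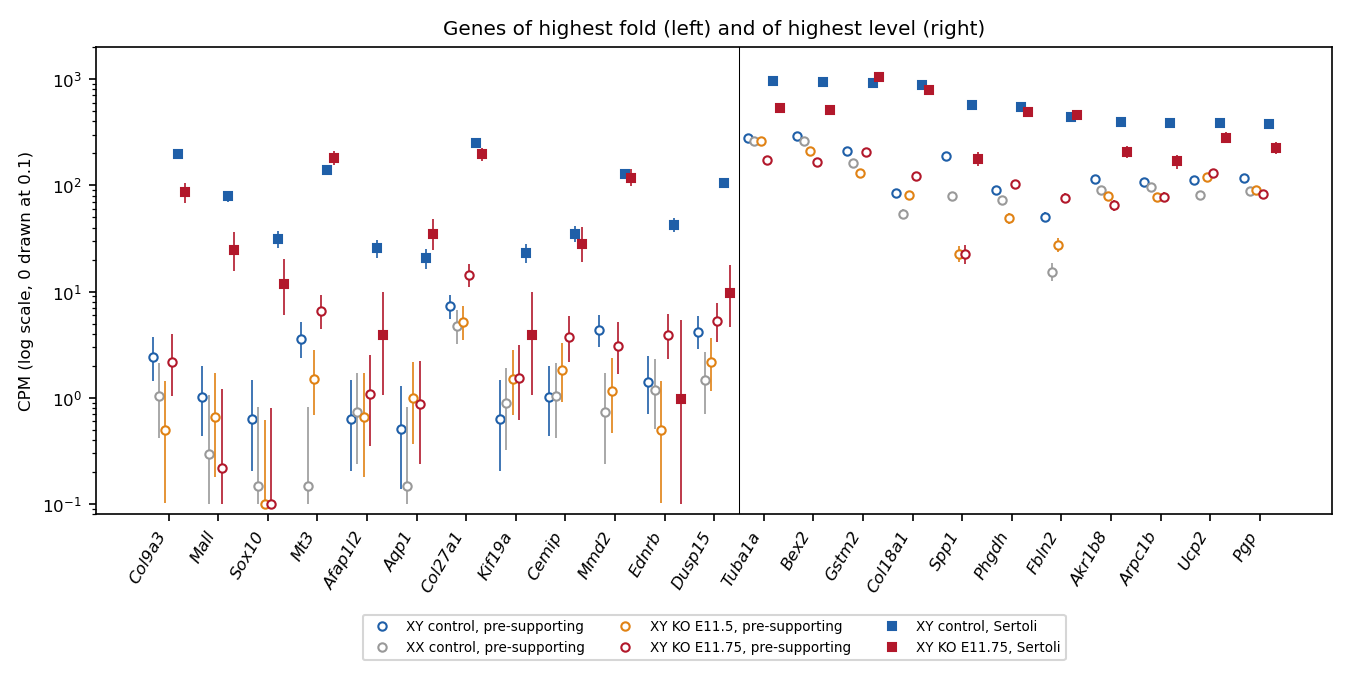
CPM on a log axis for the members of highest fold (left) and of highest Sertoli level (right), with open circles for pre-supporting cells of the 4 samples, filled squares for Sertoli cells of the XY control and of the KO at E11.75, and bars for exact 95% Poisson intervals. In these 2 samples each square lies above the circle of its own sample, except for Ednrb in the KO at E11.75 (0.974 CPM in Sertoli and 3.92 CPM in pre-supporting cells).

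The choice of members was stable between the technical runs of the XY control, which the paper gives as technical replicates and which are not independent samples. When run 1 alone chose, 223 genes were taken, and in run 2 all 223 were higher in Sertoli than in pre-supporting cells and 193 reached 3-fold. When run 2 alone chose, 217 genes were taken, all 217 were higher in run 1 and 193 reached 3-fold. Leaving out each cell with a UMI of an endothelial, immune, germ or non-globin erythroid marker kept 306 Sertoli and 727 pre-supporting cells and gave 236 genes, 201 of which were members.

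The members were then read in the cell types that the rule had not used. Sertoli cells had the highest level of 13 cell types for 144 of the 212 members (67.9%), against 818 of the 6971 genes with at least 20 CPM in Sertoli cells (12%), and 90 members (42.5%) were at least 2-fold above each other type, against 1.88% of all such genes. A gene chosen to be 3-fold above 1 type is more likely to be highest among all of them, so these shares describe the members and are no test. The widest margins over the next type were those of Rnase1, a secreted ribonuclease, with 98.2 CPM in Sertoli cells and 4.82 CPM in the next type (20.1-fold), Etd with 23.8 against 1.27 CPM (18-fold), Mt3, a metallothionein, with 139 against 9.95 CPM (13.7-fold), and Fzd9, a WNT receptor, with 62.1 against 4.57 CPM (13.4-fold). The next type was pre-supporting cells for Rnase1, Etd and Fzd9 and adenosympathic cells for Mt3. Fgf9, the growth factor that sustains Sox9 in the early testis, stood 9.26-fold above the next type, the adrenal gland, with 214 against 22.7 CPM.

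The other 68 members were shared with cells outside the lineage. Adenosympathic cells were highest for 15, immune cells for 14, adrenal, endothelial and mesonephric tubule cells for 8 each, and the remaining types for 2 to 4 each. Pre-supporting cells were highest for 0 members. Tuba1a stood at 1512 CPM in adenosympathic cells against 962 CPM in Sertoli cells, and Sox10, a neural crest factor as well as a Sertoli gene, at 66.8 against 31.1 CPM. Ednrb, an endothelin receptor of the neural crest, stood at 242 against 42.4 CPM. Elk3 was highest in endothelial cells (321 CPM), Cyba, a subunit of the phagocyte oxidase, in immune cells (598 CPM) and Vcan, the matrix proteoglycan versican, in mesonephric mesenchyme (577 CPM).

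As a sum the members took a larger share of UMIs in Sertoli cells than in any other type of the same sample in all 3 XY samples, and the size of that share differed between samples. It was 2.36% in the XY control, 0.906% (0.859 to 0.955) in the KO at E11.5 and 1.73% (1.70 to 1.75) in the KO at E11.75. In pre-supporting cells it was 0.485% in the XY control, 0.361% (0.357 to 0.366) in the KO at E11.5, 0.474% (0.468 to 0.481) in the KO at E11.75, and the XX control was at 0.373% (0.368 to 0.377). The KO at E11.5 and the XX control thus lay close to each other and below the other 2 samples. Other types of the XY control lay between 0.318% in primordial germ cells and 0.838% in adenosympathic cells.

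**Figure D2:**
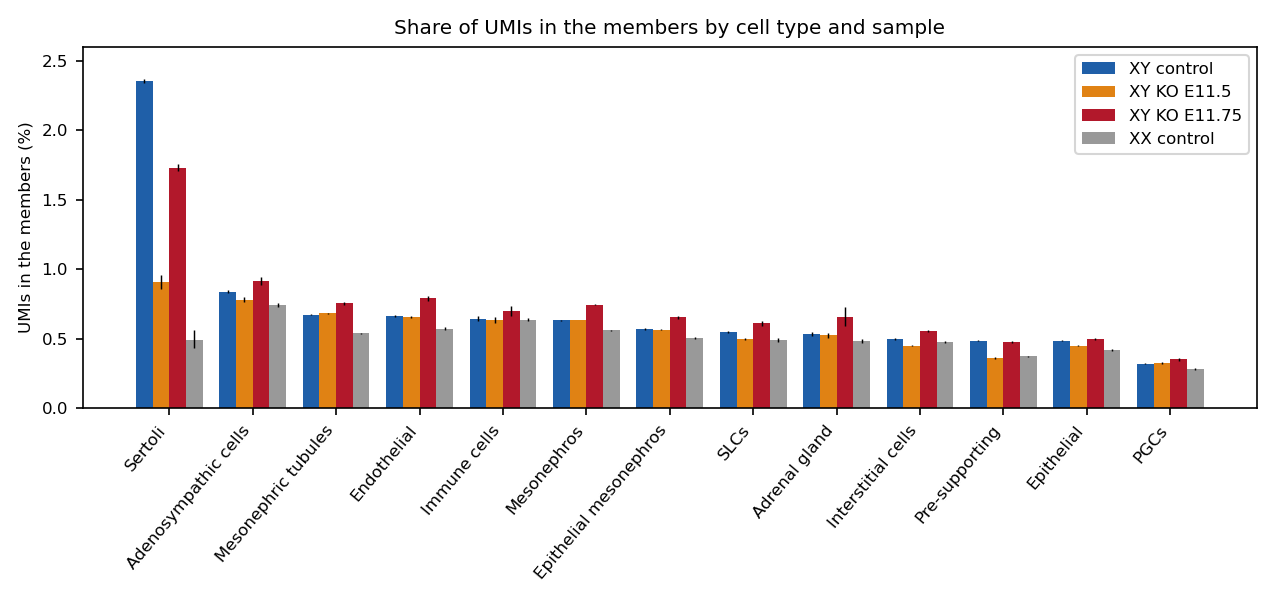
Share of all UMIs (%) that fell in the 212 members, as bars for each cell type and sample, with exact 95% intervals. The Sertoli bars differ most between samples, from 2.36% in the XY control to 0.906% in the KO at E11.5, whereas the XX Sertoli bar rests on 2 cells and the adrenal bar of the KO at E11.75 on 8 cells.

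The number of members detected was counted in single cells. After each cell was thinned to 3000 UMIs, a median of 46 members had a UMI in a Sertoli cell of the XY control (quartiles 38 to 54, n = 701 cells) and 11 in a pre-supporting cell (n = 1468), which are the cells whose summed values chose the members. The median was 34 in Sertoli cells of the KO at E11.75 (n = 163) and 17.5 in those of the KO at E11.5 (n = 24). Pre-supporting cells had a median of 9 in the KO at E11.5, 12 in the KO at E11.75 and 9 in the XX control. At or above 38 members, the lower quartile of control Sertoli cells, lay 37.4% of the Sertoli cells of the KO at E11.75 (30.0 to 45.3) and 0 of 24 at E11.5, which allows a share of up to 12.5% by the limit of 3 cells and 14.2% by the exact interval.

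Some pre-supporting cells reached the lowest number seen in a control Sertoli cell, which was 17 members. These were 14.8% of pre-supporting cells in the XY control (13 to 16.7), 13.2% in the KO at E11.75 (11 to 15.7), 1.46% in the KO at E11.5 (0.817 to 2.39) and 1.43% in the XX control (0.467 to 3.31). A value this high was therefore about as frequent in the KO at E11.75 as in the XY control, and the KO at E11.5 and the XX control were alike within their intervals. In types outside the lineage of the XY control, median numbers ran from 8 members in primordial germ cells to 15 in mesonephric tubules and 17 in adenosympathic cells. A number of 17 is thus not particular to Sertoli cells. Without thinning the medians were 65.5 in control Sertoli cells and 15 in control pre-supporting cells. Thinning left out 173 shallow pre-supporting cells in the XY control, 54 and 93 in the KO at E11.5 and E11.75, and 3 in the XX sample.

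**Figure D3:**
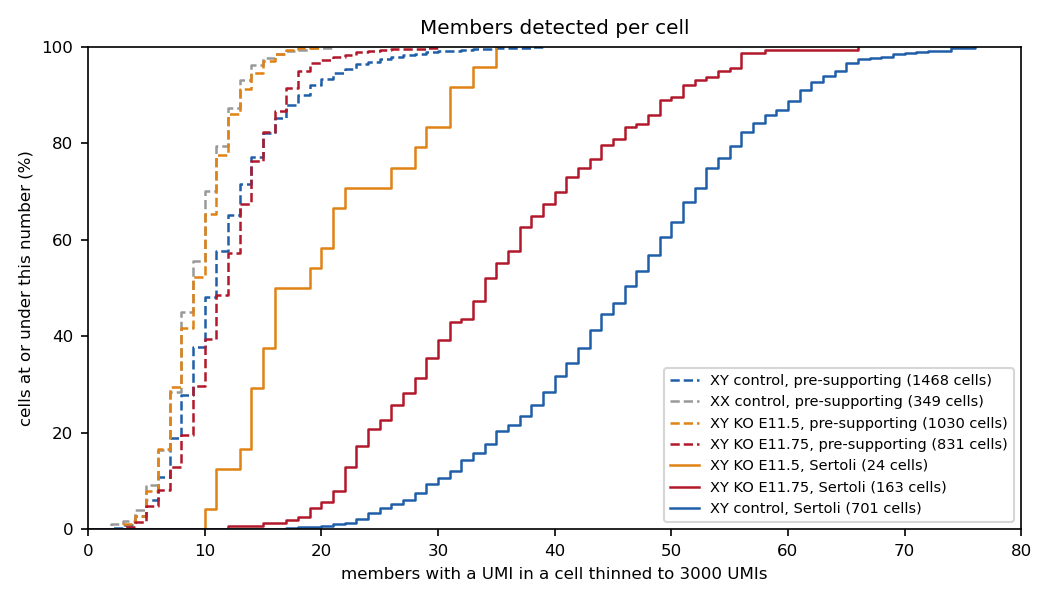
Cumulative percent of cells (y axis) against the number of members with a UMI in a cell thinned to 3000 UMIs (x axis), with dashed lines for pre-supporting and solid lines for Sertoli cells. The Sertoli cells of the KO at E11.5 (median 17.5) lie nearer to pre-supporting cells (medians 9 to 12) than to the Sertoli cells of the XY control (median 46), and those of the KO at E11.75 (median 34) lie between.

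Pre-supporting cells were then split by whether they held a Sox9 UMI. Sox9 was seen in 23.7% of thinned pre-supporting cells of the XY control (21.6 to 26.0), 4.47% in the KO at E11.5 (3.29 to 5.91), 13.2% in the KO at E11.75 (11 to 15.7) and 1.72% in the XX control (0.633 to 3.70), beside 2.78% of endothelial cells of the XY control, a type that should lack it. The XX interval held the endothelial value, and the KO interval at E11.5 lay above it. The endothelial value is a share of 611 cells with a counting error of its own, which this reading leaves out. It therefore does not set the KO at E11.5 apart from that background. Endothelial cells were read in the XY control alone, so the background of the other samples is not known here. Median depths before thinning were 4976 UMIs with and 4661.5 UMIs without Sox9 in the XY control, 5164 and 5430.5 in the KO at E11.5, 4821.5 and 4849 in the KO at E11.75, and 29712 and 17487 in the XX control, where 6 cells held Sox9. Without thinning the Sox9 shares were 27.7%, 7.75%, 17.7% and 9.94% in the same order.

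In the XY control the members took 0.697% of UMIs in cells with Sox9 (0.681 to 0.713) and 0.408% in cells without (0.401 to 0.415), a ratio of 1.71 (1.66 to 1.76). In the KO at E11.75 the values were 0.611% and 0.446%, a ratio of 1.37 (1.30 to 1.44). In the KO at E11.5 they were 0.388% and 0.358%, a ratio of 1.08 (0.990 to 1.18), and in the XX control 0.439% and 0.360%, a ratio of 1.22 (0.963 to 1.52), both with intervals that hold 1. Single members had an interval wholly above 0 in 88 cases in the XY control, 27 in the KO at E11.75, 6 in the KO at E11.5 and 4 in the XX control. An interval wholly below 0 was held by 1, 0, 2 and 0 members in the same order. The share over all genes was not computed, so these counts are no result about the members. Fbln2, the matrix protein fibulin-2, was higher in cells with Sox9 in each XY sample, with 111 against 29.5 CPM in the XY control, 94.2 against 25.4 CPM in the KO at E11.5 and 155 against 64.7 CPM in the KO at E11.75. The pre-supporting values of the XY control entered the rule, so the gap in the KO samples is the one that the rule did not use, although cell types were named from the genes of all samples together.

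Next, the members were compared between samples. A gene was tested where both sides together held at least 50 UMIs, and called where its ratio of CPM, with 0.5 UMI added to both, was at least 2-fold. In pre-supporting cells, with the KO at E11.5 set over the XY control, 28 of the 166 members tested were called lower (16.9%), against 3.0% of all genes tested, and 1 was called higher (Rab11fip4, log2 ratio 1.05), against 0.990%. The median log2 ratio was -0.38 over these members and -0.09 over all genes tested. Set against the median gene, 114 of the 166 members lay below and 52 above. Of all 212 members, 100 had an interval wholly below 0 and 11 wholly above, and the same share over all genes was not computed. The control values of pre-supporting cells, which helped to choose the members, are the denominator here.

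In the XX control over the XY control, 27 of 168 members were called lower (16.1%), against 2.26% of all genes tested, and 0 were called higher, against 0.815%, with medians of -0.45 over the members and -0.11 over all genes. In the KO at E11.75 over the XY control, 19 of 170 members were called lower (11.2%), against 2.20% of all genes, and 17 were called higher (10.0%), against 4.91%, with medians of 0.17 and 0.19. Under TMM scaling, which sets the bulk of genes equal and moved the ratios of this comparison down by 0.20, the split changed to 26 lower and 10 higher. Relative to the median gene, 83 of the 170 members lay above and 87 below. In pre-supporting cells the marker lists of other types also differed between samples. Summed levels in the XY control, the KO at E11.5, the KO at E11.75 and the XX control were 2622, 1123, 1581 and 810 CPM for erythroid, 87.8, 35.7, 44.7 and 57.1 CPM for germ cell, 26.0, 7.30, 4.58 and 22.4 CPM for immune, 205, 118, 86.1 and 289 CPM for adrenal, and 487, 582, 723 and 484 CPM for interstitial markers. Their part in the members' ratios was not tested. The 3 comparisons share the XY control, and the XX control also differs from it in breeding, depth and the authors' cell filter. The authors' beta-globin limit for keeping a cell also differed between the XY samples, highest in the XY control and lowest in the KO at E11.5. Their mitochondrial limit was lower in the KO at E11.75 than in the other XY samples. The part of these limits in the marker sums and ratios was not tested.

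**Figure D4:**
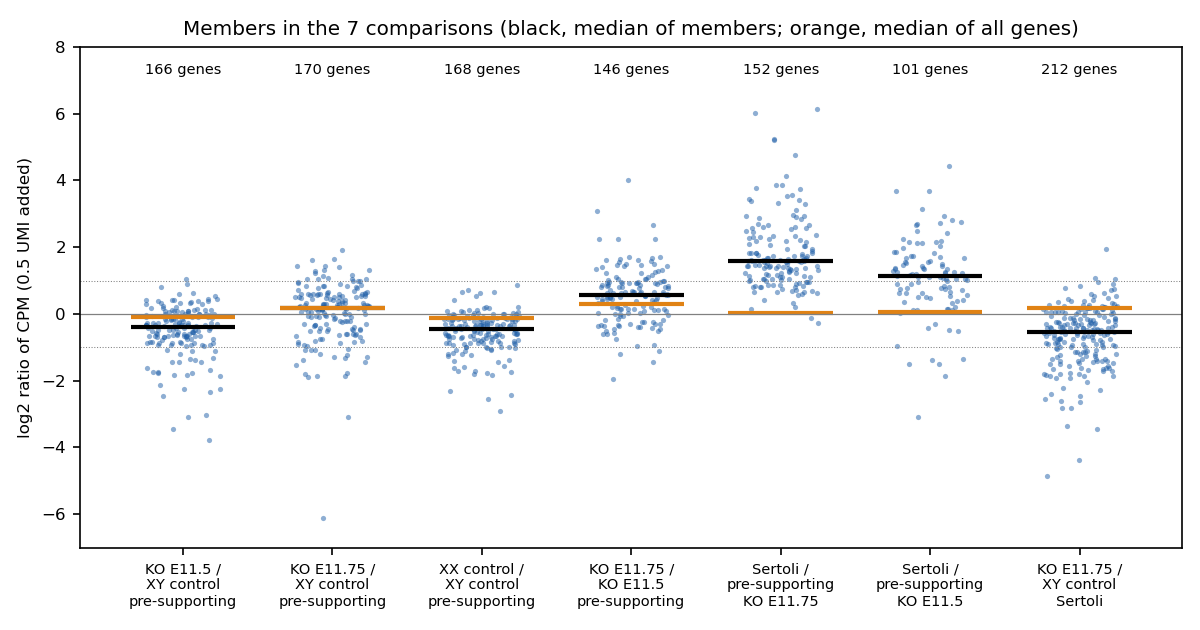
Log2 ratio of CPM of the members tested in each of the 7 comparisons (points), with the median of these members in black and the median of all genes tested in orange. The black line lies well above the orange one for Sertoli over pre-supporting cells (1.58 against 0.04 in the KO at E11.75) and below it for the KO at E11.75 over the XY control in Sertoli cells (-0.53 against 0.19).

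The KO samples can be set against each other without any value that chose the members. In pre-supporting cells, 34 of the 146 members tested were called higher at E11.75 than at E11.5 (23.3%), against 7.32% of all genes, and 4 were called lower, against 1.12%. The medians were 0.57 over the members and 0.30 over all genes. Of the 146 members tested, 92 lay above the median gene and 54 below. Under TMM scaling, which moved these ratios down by 0.29, 23 were called higher and 7 lower. The cells at E11.75 also had a higher median mitochondrial share (6.16% against 4.67%), and its part in this difference was not tested.

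Metabolic enzymes as a class had a median log2 ratio of 0.55 between the KO stages, close to that of all members tested. Gatm, which makes the precursor of creatine, stood at 2.82 CPM in pre-supporting cells of the KO at E11.5, 10.1 CPM in the XY control, 4.28 CPM in the XX control and 18.3 CPM in the KO at E11.75, and its log2 ratio between the KO stages was 2.67 (1.93 to 3.54). Phgdh rose from 48.9 to 102 CPM between the KO stages (log2 ratio 1.06, 0.85 to 1.27) and Psat1, the next enzyme of serine synthesis, from 11.3 to 30.7 CPM (1.44, 1.02 to 1.89). In the XY control these serine genes stood at 90.1 and 13.1 CPM. Of the 26 members classed as metabolic enzymes, 22 were tested at E11.5 over the XY control and 9 were called lower, beside 16.9% of all members and 3.0% of all genes. Between the KO stages 18 were tested, with 5 called higher, a share close to the 23.3% of all members, and 1 lower (Lpcat2, log2 ratio -1.96).

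Spp1 (chr5:104435118-104441050, mm10, plus strand), which encodes the secreted protein osteopontin, behaved differently. It stood at 190 CPM (181 to 200) in pre-supporting cells of the XY control, 79.8 CPM (73.2 to 86.8) in the XX control, 22.6 CPM (18.9 to 26.7) in the KO at E11.5 and 22.4 CPM (18.3 to 27.2) in the KO at E11.75. Both KO samples lay below both controls, and the interval of their own log2 ratio held 0 (-0.01, -0.39 to 0.37). In Sertoli cells the same gene stood at 574 CPM in the XY control and 176 CPM (152 to 204) in the KO at E11.75. After thinning, 31.3% of pre-supporting cells held an Spp1 UMI in the XY control and 5.17% in the KO at E11.75, beside 1.31% of endothelial cells of the XY control. Outside pre-supporting and Sertoli cells the gene was rare, at 6.75 CPM in the XY control and 2.21 and 5.68 CPM in the KO at E11.5 and E11.75.

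Fgf9 (chr14:58070547-58112720, plus strand) stood at 9.26 CPM (7.26 to 11.6) in pre-supporting cells of the XY control, 2.65 CPM (1.52 to 4.31) and 2.61 CPM (1.35 to 4.57) in the KO at E11.5 and E11.75, and 1.18 CPM (0.509 to 2.32) in the XX control. In Sertoli cells of the KO at E11.75 it had reached 176 CPM (152 to 204), near the 214 CPM (200 to 228) of the XY control. After thinning, Fgf9 was seen in 44.7% of Sertoli cells of the XY control and in a lower share, 31.9%, of those of the KO at E11.75. The shares were 2.32% and 0.361% of pre-supporting cells in the same order, and 0.164% of endothelial cells. Tesc, a calcium-binding protein of the early testis, stood at 11.67 CPM in the XY control, 5.16 CPM in the XX control, 0.995 CPM in the KO at E11.5 and 4.58 CPM at E11.75. Lrp4, a receptor that tempers WNT signals, stood at 9.26, 5.90, 2.82 and 3.92 CPM in the same order.

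Among transcription factors and coregulators, 4 of 12 members tested were called lower at E11.5 over the XY control and 3 lower and 1 higher at E11.75, beside 16.9% of all members lower at E11.5 and 11.2% lower and 10.0% higher at E11.75, and 3.0%, 2.20% and 4.91% of all genes. Rhox8, a homeobox gene of the reproductive tract, was at 19.4 CPM in the XY control, 20.3 CPM in the XX control, 1.33 CPM in the KO at E11.5 and 7.84 CPM at E11.75. Mybl1, an MYB-family factor, was at 10.9 CPM in the XY control and between 2.83 and 3.15 CPM in the other 3 samples. Cited4, a transcriptional coactivator, was at 6.09 CPM in the XY control and between 1.18 and 2.18 CPM elsewhere. Both Mybl1 and Cited4 were thus highest in the XY control, whereas Rhox8 was low in the KO samples alone. Jun, an immediate early gene that dissociation can raise, was at 97.2 CPM in the XY control, 110 CPM in the XX control, 44.9 CPM in the KO at E11.5 and 70.8 CPM at E11.75.

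Hsd17b3, the enzyme that makes testosterone from androstenedione, was at 7.48 CPM in the XY control, 5.46 CPM in the XX control and 2.16 CPM in the KO at E11.5, and at 0 UMIs in the KO at E11.75. Against the level that 3 counts would give there, it was at least 11.4-fold lower than in the XY control.

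Of the 17 members called higher at E11.75 than in the XY control, 4 were among the 26 signalling genes tested and 4 among the 17 cytoskeletal and adhesion genes tested, beside 10.0% of all members and 4.91% of all genes. Sema5a, a transmembrane semaphorin, stood at 18.8 CPM in pre-supporting cells of the XY control, 12.2 CPM in the XX control, 14.9 CPM in the KO at E11.5 and 71.0 CPM at E11.75. Ptprd, a receptor tyrosine phosphatase, stood at 40.7, 40.4, 43.8 and 90.4 CPM in that order, and Cdh2, which encodes N-cadherin, at 42.9, 44.7, 38.3 and 89.3 CPM. The KO at E11.75 was alone in being high for these genes. Mylk, the myosin light chain kinase, stood at 8.12, 6.93, 12.4 and 25.5 CPM and Vcan at 48.2, 55.6, 30.4 and 98.9 CPM. Some of these differences were also present outside the lineage. In the sum of all other cells, Sema5a stood at 164 CPM in the KO at E11.75 and 48.4 CPM in the XY control (log2 ratio 1.76), whereas Cdh2 stood at 135 and 119 CPM (0.18). Of the 17 members called higher in pre-supporting cells, 4 were also at least 2-fold higher in these other cells, beside 12 of all 208 members and 3.73% of all genes tested there, and of the 27 members called lower at E11.5 and testable there, 10 were also lower, beside 18 of 209 members and 3.83% of all genes, among them Spp1 (-1.61). In these cells the median log2 ratio was -0.17 over the members and -0.11 over all genes at E11.5, and 0.21 and 0.16 at E11.75.

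Among members known from WNT signalling, Fzd9 stood at 4.57 CPM in pre-supporting cells of the XY control, 1.49 CPM in the KO at E11.5 and 1.31 CPM at E11.75, Lgr5, a receptor for R-spondins that also marks pre-granulosa precursors, at 20.5, 7.46 and 23.5 CPM, and Kremen1, a Dickkopf receptor, at 21.8, 15.1 and 24.8 CPM. Of the 24 ligands, receptors and signalling genes tested at E11.5 over the XY control, 6 were called lower and 0 higher, beside 16.9% of all members and 3.0% of all genes called lower. At E11.75 2 of 26 were called lower, beside 11.2% and 2.20%, and 4 higher, beside 10.0% and 4.91%.

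The step from pre-supporting to Sertoli cells was also read within the KO samples. In the KO at E11.75, 120 of the 152 members tested were called higher in Sertoli cells (78.9%), against 3.52% of all genes tested, and 0 were called lower, against 2.64%, with medians of 1.58 and 0.04. Of the 152 members tested, 150 lay above the median gene and 2 below. An interval wholly above 0 was held by 186 of all 212 members, and the same share over all genes was not computed. None of these values chose the members, although cell types were named from expression in all samples together, so that this is no test. Each of the 15 matrix and secreted members tested was called higher, with a median of 2.58. Fgf9 showed a log2 ratio of 6.02 (5.24 to 7.05), from 2.61 to 176 CPM, Rnase1 of 6.13 (4.87 to 8.21), from 0.872 to 68.2 CPM, and Col9a3 of 5.24 (4.35 to 6.41), from 2.18 to 85.7 CPM.

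Ednrb, Rrs1 and Filip1l were the 3 members with a log2 ratio below 0 in the KO at E11.75. Papss2 was also lower there in CPM, at 2.92 CPM in Sertoli and 3.27 CPM in pre-supporting cells. With the UMIs added to both sums its log2 ratio was 0.01. Rrs1, a ribosome assembly factor, stood at 49.0 CPM in pre-supporting and 44.8 CPM in Sertoli cells there, against 48.1 and 170 CPM in the XY control. Vstm4 stood at 23.1 and 25.3 CPM, against 20.9 and 70.3 CPM, and Neto2, a receptor accessory protein, at 22.4 and 25.3 CPM, against 15.1 and 57.1 CPM. Dusp15, a phosphatase, went from 5.23 to 9.74 CPM in the KO and from 4.19 to 105 CPM in the XY control. Rrs1, Vstm4 and Dusp15 were thus near the control level in pre-supporting cells and below it in Sertoli cells.

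In the KO at E11.5 the 24 Sertoli cells held 151331 UMIs in all, so that 3 counts there stand for 19.8 CPM. Of 101 members tested, 59 were called higher than in pre-supporting cells (58.4%), against 8.59% of all genes tested, with medians of 1.13 and 0.07. The 6 called lower, against 10.0% of all genes, were all at 0 UMIs, and against the level of 3 counts none of them was 2-fold lower. In all, 50 members were at 0 UMIs in these cells. Col9a3 and Sox10 were among the 50, whereas Rnase1 had 9 UMIs, Fgf9 10 UMIs and Gstm2 86 UMIs.

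Sertoli cells of the KO at E11.75 were lower in many members than those of the XY control. All 212 were tested, 66 were called lower (31.1%), against 3.0% of all genes tested, and 3 were called higher (1.42%), against 6.80%, with medians of -0.53 over the members and 0.19 over all genes. Set against the median gene, 180 of the 212 members lay below and 32 above. An interval lay wholly below 0 for 114 members and wholly above for 18, and the same share over all genes was not computed. Members were chosen for high values in the Sertoli cells of the XY control, which are the denominator. Under TMM scaling, which moved these ratios down by 0.27, 87 were called lower and 1 higher. The Sertoli cells of the KO at E11.75 had a median mitochondrial share of 6.20%, against 4.53% in the XY control, and its part was not tested.

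The lowest ratios were those of Ednrb, Siglece and Hsd17b3. Ednrb stood at 42.4 CPM in Sertoli cells of the XY control and 0.974 CPM (1 UMI) in the KO, a log2 ratio of -4.86 (-10.75 to -2.95), and Siglece, a sialic acid receptor of myeloid cells, at 30.1 against 0.974 CPM. Hsd17b3 stood at 26.2 against 1.95 CPM, and Hsd3b1, a steroid dehydrogenase, at 29.1 against 7.79 CPM. Among the cell types of the XY control Ednrb was highest in adenosympathic cells and Hsd3b1 in the adrenal gland, but Siglece and Hsd17b3 were highest in Sertoli cells. Summed levels of 10 neural crest markers, which include Sox10, were 61.2 CPM in the Sertoli cells of the XY control and 36.0 CPM in the KO at E11.75. Those of 8 adrenal markers, which include Hsd3b1, were 183 and 95.5 CPM, and those of 10 immune markers 26.2 and 3.90 CPM, with 6 of the 10 at 0 in the KO. Germ cell markers went from 78.7 to 40.9 CPM and erythroid markers from 2269 to 1336 CPM, whereas interstitial markers went from 458 to 809 CPM, mesonephric tubule markers from 392 to 599 CPM, coelomic epithelial markers from 430 to 485 CPM and endothelial markers from 58.5 to 64.3 CPM. The part of such cells or of free RNA in these values was not tested.

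Members at high levels in the XY control were also among those called lower. Dct, an enzyme of melanin synthesis, stood at 236 CPM in the XY control and 50.7 CPM in the KO (log2 ratio -2.21, -2.65 to -1.82), Tesc at 216 and 67.2 CPM, Cited4 at 131 and 23.4 CPM and St3gal4, a sialyltransferase, at 246 and 79.9 CPM. Against 31.1% of all members and 3.0% of all genes, 11 of 26 metabolic enzymes were called lower, of 32 ligands, receptors and signalling genes 9, of 20 cytoskeletal and adhesion genes 7, of 15 transcription factors and coregulators 6, of 22 matrix and secreted genes 4, and of 14 channels and transporters 3. Col9a3 was lower (198 and 85.7 CPM), but the other collagen IX chains were not called, with Col9a1 at 23.4 and 25.3 CPM and Col9a2 at 149 and 121 CPM. In CPM by total UMIs, Gstm2 (913 and 1050 CPM), Fbln2 (440 and 455 CPM), Mt3 (139 and 180 CPM) and Gatm (178 and 202 CPM) were as high in the KO as in the XY control or higher. This depends on the scaling, since the median log2 ratio over all genes tested was 0.19 and TMM scaling moved the ratios down by 0.27.

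The 3 members called higher were signalling and adhesion receptors. Itga4, an integrin subunit, stood at 25 CPM in the XY control and 97.4 CPM in the KO (log2 ratio 1.96, 1.55 to 2.37), Ptprd at 137 and 285 CPM (1.07, 0.86 to 1.27) and Sema5a at 115 and 235 CPM (1.04, 0.80 to 1.26). In all other cells together, Itga4 stood at 10.8 and 13.3 CPM (0.31) and Ptprd at 141 and 236 CPM (0.75). Under TMM scaling Ptprd (0.80) and Sema5a (0.77) fell under 2-fold.

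**Figure D5:**
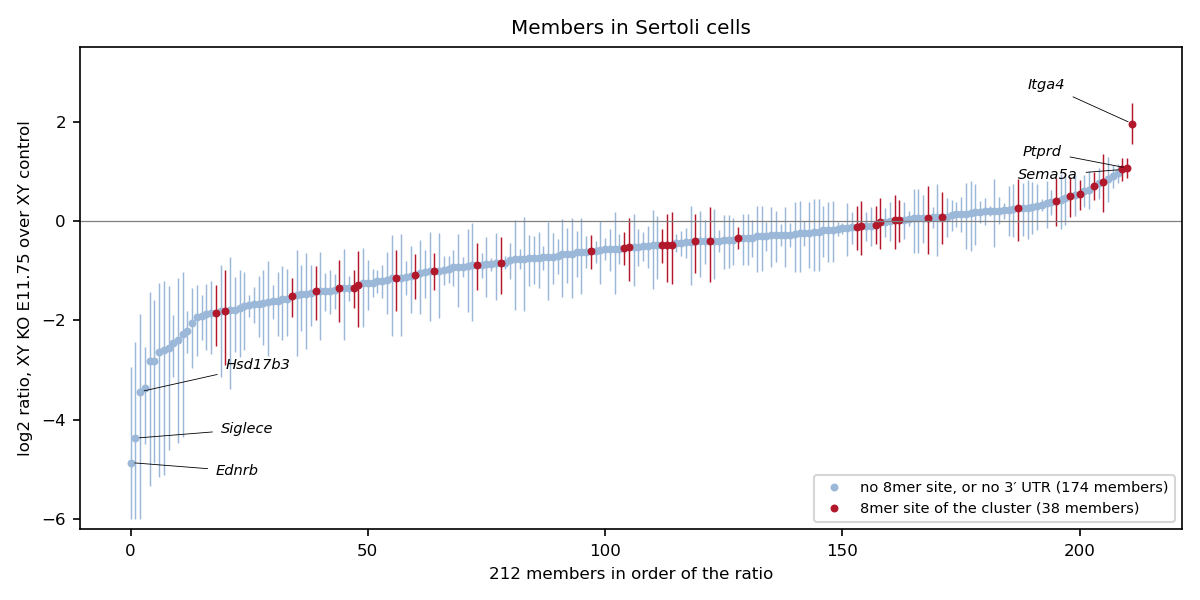
Log2 ratio of the KO at E11.75 over the XY control in Sertoli cells for the 212 members in rising order, with exact 95% intervals drawn no further than -6 and red points for members with an 8mer site of the cluster in the 3′ UTR. Itga4, Ptprd and Sema5a form the upper end and Ednrb, Siglece and Hsd17b3 the lower end.

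MicroRNAs pair through their seed, bases 2 to 8, with sites in 3′ UTRs and lower the transcripts that hold them. The cluster lies on mouse chromosome 14 (mature sequences at chr14:115043684-115044496, GRCm38.p6, plus strand). Its main arms are shown as given by RefSeq, because their seeds define the sites searched, with the seed in capitals. They fall into 4 seed families, since miR-17-5p and miR-20a-5p share 1 seed and miR-19a-3p and miR-19b-3p another.
mmu-miR-17-5p: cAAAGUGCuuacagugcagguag
mmu-miR-20a-5p: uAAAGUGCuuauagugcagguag
mmu-miR-18a-5p: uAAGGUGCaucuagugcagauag
mmu-miR-19a-3p: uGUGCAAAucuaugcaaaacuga
mmu-miR-19b-3p: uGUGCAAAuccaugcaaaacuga
mmu-miR-92a-3p: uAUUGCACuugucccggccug

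Of 206 members with a 3′ UTR in GENCODE M21, 38 held an 8mer site, which pairs with the whole seed and has an A opposite base 1 (18.4%), against 14.0% of all genes with at least 20 CPM in Sertoli cells. The median 3′ UTR length was 1527 bases for members and 1232 bases for all these genes, and the part of length in the difference was not tested. In Sertoli cells of the KO at E11.75 over the XY control, the median log2 ratio was -0.41 for the 38 members with a site and -0.58 for the 168 without. Over all genes tested the medians were 0.39 with and 0.16 without a site. In pre-supporting cells the members with and without a site had medians of 0.36 and 0.09 in the KO at E11.75 and -0.31 and -0.45 in the KO at E11.5. Over all genes the medians with and without a site were 0.40 and 0.16 at E11.75, and -0.10 and -0.09 at E11.5, where no such gap was seen.

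Each of the 3 members called higher in Sertoli cells held an 8mer, whereas 0 of the 168 members without a site were called higher. The 3′ UTRs of these 3 were long, with 6926 bases (Sema5a), 6508 bases (Itga4) and 3720 bases (Ptprd) against a median of 1527 bases for members. The part of length was not tested. In the other direction, 10 of the 38 with a site and 53 of the 168 without were called lower. Under TMM scaling Itga4 alone of the 3 stayed above 2-fold. Over all genes tested, 142 of 1320 with a site and 475 of 7823 without were called higher. In the same order, 27 and 237 were called lower. In pre-supporting cells of the KO at E11.75 over the XY control, 4 of 34 members with a site and 13 of 130 without were called higher. Over all genes tested there, 118 of 1517 with a site and 395 of 9142 without were called higher. Sites are shown for the 3 members called higher in Sertoli cells, and for Mylk, which was higher in pre-supporting cells at E11.75. The bases on either side are given, with the site in capitals, as DNA on the strand of the gene (mm10). A match is a description and not evidence of binding. They lie at chr15:32689824-32689831 (Sema5a, plus strand, miR-17 family), chr2:79327747-79327754 (Itga4, plus, miR-17 family), chr4:75944220-75944227 (Ptprd, minus, miR-19 family), chr4:75943676-75943683 (Ptprd, minus, miR-92 family) and chr16:35000745-35000752 (Mylk, plus, miR-18 family). Sema5a held 2 further sites, at chr15:32692197-32692204 (miR-19 family) and chr15:32692431-32692438 (miR-18 family).
Sema5a, miR-17 family: caaataaccagGCACTTTAatctgagagat
Itga4, miR-17 family: ttataaatatcGCACTTTAgctgatacaca
Ptprd, miR-19 family: taatctgaaacTTTGCACAtttttgtgcaa
Ptprd, miR-92 family: ctaacactctaGTGCAATAacaattgttaa
Mylk, miR-18 family: tgaattagataGCACCTTAaacactagtgc

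Since SOX9 and related factors act in this lineage, promoter sequences were searched on both strands for the words ACAATG and AACAAAG, and for AACAAT. All are short forms of the sequence that SOX factors are known to bind, where ACAATG and AACAAT can overlap. The sequences searched include the 250 bases upstream of the start site, and the shares below are for the whole sequences. RefSeq promoters (GRCm38.p6) were found for 154 members, and 25 of these held a word (16.2%), against 16.3% of the genes with at least 20 CPM in Sertoli cells and 19.7% of all genes. The share in the members was thus close to that of the genes with this level. By word it was 9.74% for ACAATG, 5.19% for AACAAAG and 6.49% for AACAAT, against 8.67%, 4.38% and 6.61%. Dct is shown as a member with 2 words (chr14:118052247-118052496, minus strand, words in capitals) and Tesc as a member with no word (chr5:118027493-118027742, plus strand). For both, the 250 bases upstream are written 5′ to 3′ and end next to the start site.
Dct: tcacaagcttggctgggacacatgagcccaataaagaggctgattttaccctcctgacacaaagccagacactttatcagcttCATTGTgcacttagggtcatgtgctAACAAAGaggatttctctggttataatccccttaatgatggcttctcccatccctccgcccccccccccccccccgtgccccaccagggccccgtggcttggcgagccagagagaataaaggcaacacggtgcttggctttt
Tesc: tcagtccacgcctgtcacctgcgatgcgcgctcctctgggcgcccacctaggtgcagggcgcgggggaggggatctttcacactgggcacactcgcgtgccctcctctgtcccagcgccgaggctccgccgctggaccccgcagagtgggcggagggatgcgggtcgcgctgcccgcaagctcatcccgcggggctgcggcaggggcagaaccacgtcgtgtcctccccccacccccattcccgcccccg

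Lists of genes known from this setting were read beside the members. Of 37 Sertoli differentiation genes in the table, 8 were members (Sox10, Fgf9, Col9a3, Hsd17b3, Tesc, Mmd2, Serpine2 and Etd) and 9 more were the genes the rule left out. Of this list, 26 genes were tested in pre-supporting cells of the KO at E11.5 against the XY control, with 8 lower and 0 higher, beside 3.0% of all genes lower and 0.990% higher, and 26 in Sertoli over pre-supporting cells of the KO at E11.75, with 11 higher and 0 lower, beside 3.52% and 2.64% of all genes. In Sertoli cells of the KO at E11.75 over the XY control, 10 of 33 genes of this list were lower and 1 higher, beside 3.0% and 6.80% of all genes, which is the background for the other lists in this comparison too, and the sums of this list were 4213 and 6249 CPM. Of its members, Mmd2 reached 128 CPM in Sertoli cells of the XY control and 118 CPM in those of the KO at E11.75. Among 24 basement membrane and matrix genes, Col9a1, Col9a2, Col9a3 and Col18a1 were members, and 3 of 20 tested were higher in Sertoli than in pre-supporting cells of the KO at E11.75, beside 3.52% of all genes. In Sertoli cells of the KO at E11.75 over the XY control, 6 of 21 were higher and 1 lower. Of 19 genes of the granulosa side, Lgr5 was the only member, and 8 of 13 tested were higher and 0 lower in Sertoli cells of the KO at E11.75 than of the XY control, beside 6.80% of all genes higher. Cdh2 was a member among 23 junction genes, and Jun among 16 immediate early genes. In Sertoli cells of the KO at E11.75 over the XY control, 0 of 12 junction genes tested were higher and 1 lower, and 3 of 12 immediate early genes were higher and 1 lower. The lists of FGF feedback, actin and muscle, glycolysis, cholesterol synthesis and cell cycle genes held 0 members each, and in the same comparison 1 of 9, 0 of 18, 0 of 17 and 3 of 19 genes of the former lists were higher and 0, 4, 2 and 0 lower, while 0 of 17 G2/M and 0 of 14 S phase genes were higher and 1 and 0 lower.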

How the data were processed

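Cells of gonad and mesonephros were analysed in 4 samples, 1 per group. The authors aligned reads to mm10 with Cell Ranger 6.1.1, to which the second exon of Sry had been added, removed doublets with DoubletFinder, filtered XY cells by mitochondrial percent, beta-globin, UMIs and genes and XX cells by removing clusters of low quality, and named cell types after integration in Seurat. Their limits on mitochondrial percent and beta-globin differed between the XY samples. The authors deposited raw UMI counts per cell, with the mitochondrial percent and the cell type of each cell. Counts were not changed by the integration. Doublets were not called again. The table held 52745 cells, 21495 genes and 301219830 UMIs, with 3893 to 15510 UMIs in the median cell of a sample. Samples shared 17 to 123 cell barcodes in pairs, and technical runs of a sample 1 to 40. The order of stages in the methods' account of KO cell numbers differs from the table, whose own sample names were used. In the table the KO at E11.75 is the sample with a single technical run, as in the methods. No column of per-sample values was left unused (0).

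Counts were summed by sample and cell type and divided by total UMIs (CPM). A ratio took 0.5 UMI on both sides. With 1 sample per group no p-value was computed. Intervals are exact Poisson for CPM, Clopper-Pearson for shares and binomial for ratios, at 95%. The floor for a count of 0 is 3 counts over the summed cells. Cells were thinned to 3000 UMIs with a fixed seed. The named members were the 12 of highest Sertoli CPM, the 12 of highest fold, the 3 highest and 3 lowest ratios in each of the 7 comparisons among members with at least 100 UMIs, the leading member of each other cell type, the 3 genes just inside and just outside the fold, and those in a fixed list. Other members named were chosen after their values were seen, as were the role groups, the cells outside the lineage, the printed promoters and the bounds for counts of 0. Some items are not reported here by name. Members and lists were chosen with earlier results of these data known. Positions and 3′ UTRs came from GENCODE M21 (209 of 212 members matched), and microRNAs and promoters from RefSeq (GRCm38.p6). Scripts ran in Python 3.11.15 with numpy 2.4.6, scipy 1.17.1 and pandas 2.3.3. TMM factors came from edgeR 4.0.16 in R 4.3.3. The ratio and call script was tested on simulated data. Alternatives were TMM scaling, another prior count, UMI minimum, fold and rule, cells with at least 5000 UMIs, means per cell, single technical runs and cells without markers of other types.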

Additional observations from a re-analysis of the deposited data

Results flagged for a closer look

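Gatm lay on opposite sides of the XY control at the KO stages in pre-supporting cells, with a log2 ratio of -1.81 at E11.5 and 0.85 at E11.75, which differ by 2.67. Bex4, a small protein of the brain-expressed X-linked family, went the other way, with 0.32 and -0.61, which differ by -0.93. Each group is 1 sample, so these differences were not tested. The 2 XX cells with the Sertoli name, which no main comparison used, held 0.494% of their UMIs in the members (0.433 to 0.561).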

How the results depend on the processing

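Of 151 alternative values of the counts and medians, 94 were kept and 57 were not. A count was kept within 1.5 times of the value reported, and a median per cell within the quartiles of the thinned cells. Of 264 alternative ratios of single genes, 251 were kept, 8 newly passed 2-fold and 5 no longer did. Of the ratios at 2-fold or more, 0 changed direction. A smaller ratio was kept if it stayed under 2-fold and held its sign or lay within its interval. For pre-supporting cells of the KO at E11.5 set over the XY control (28 lower, 1 higher), a minimum of 20 UMIs gave 45 lower, a minimum of 200 UMIs 9 lower and 0 higher, a 3-fold limit 18 lower and 0 higher, a prior of 5 UMIs 0 higher, and cells with at least 5000 UMIs, run 1 of the KO or run 1 of the control gave 2 higher each. For the KO at E11.75 (19 lower, 17 higher), TMM scaling gave 10 higher, the minimum of 200 UMIs 4 lower and 7 higher, the 3-fold limit 7 lower and 3 higher, and run 1 of the control 10 lower. For the XX control (27 lower, 0 higher), the minimum of 20 UMIs gave 42 lower and 1 higher, that of 200 UMIs 8 lower, the 3-fold limit 11 lower, run 2 of the XX control 1 higher and run 2 of the XY control 2 higher. Between the KO stages (4 lower, 34 higher), TMM scaling gave 7 lower, the minimum of 200 UMIs 1 lower and 11 higher, the 3-fold limit 1 lower and 12 higher, cells with at least 5000 UMIs 1 lower and run 2 of the KO at E11.5 2 lower. Merging pre-supporting with Sertoli cells, which counts the share of Sertoli cells into each ratio, gave 174 lower and 0 higher at E11.5, 73 lower and 0 higher at E11.75, 187 lower in the XX control, and 1 lower and 89 higher between the KO stages. For Sertoli over pre-supporting cells, the KO at E11.75 (120 higher) gave 47 at the minimum of 200 UMIs and 75 at 3-fold, and the KO at E11.5 (59 higher) gave 91 with a prior of 5 UMIs, 92 and 14 at the minimums of 20 and 200 UMIs, 25 and 35 in its runs 1 and 2 and 29 at 3-fold. For Sertoli cells of the KO at E11.75 over the XY control (66 lower, 3 higher), TMM scaling gave 1 higher, the minimum of 200 UMIs 40 lower, the 3-fold limit 32 lower and 1 higher, and cells with at least 5000 UMIs 5 higher. A stricter minimum or fold leaves fewer genes that can be called, and for the other settings the cause was not tested. The rule chose 416 genes at 2-fold, 114 at 5-fold and 115 at 50 CPM. Without thinning, the median number of members per cell was 65.5 and 54 in Sertoli cells of the XY control and of the KO at E11.75, 15 in pre-supporting cells of the XY control, 15 and 17 in those of the KO at E11.5 and E11.75, and 34 in the XX control.

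No paired analysis was possible because each group is 1 sample. The KO at E11.5 has 24 Sertoli cells, where 3 counts give 19.8 CPM, so low members were not detectable there at this depth.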
